A study of Caenorhabditis elegans with 15 samples.

Results

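The heterochronic genes of *C. elegans* set the larval stage at which a cell lineage takes on its fate, and 9 of them were followed through all libraries of a study of synaptic adhesion mutants. They were *lin-14*, *lin-28*, *hbl-1*, *lin-46*, *lin-41*, *lin-29*, *lin-42*, *daf-12* and *dre-1*, chosen by gene name as members of the pathway that times development from larva to adult. They make up 9 of the 46756 genes of the count table, of which 31569 had counts. All 9 had counts in every library. Total RNA was measured in 15 libraries, 3 of each of 5 strains. The mutants were *nrx-1* (ok1649) and *nrx-1* (tm1961), deletion alleles that affect the long alpha isoform of the neurexin gene, and *nlg-1* (ok259) and *nlg-1* (tm474), alleles of the neuroligin gene that the study describes as a full knockout (ok259) and as a deletion within the locus (tm474). N2 (WT) was the strain each was set against. Every sample was labelled young adult and pooled about 20000 synchronized worms, kept at 20 °C and collected 48 h after the L1 larval stage. The N2, ok1649 and ok259 strains came from one stock centre and the tm1961 and tm474 strains from another, and the study states that tm1961, ok259 and tm474 were not backcrossed, so that allele and strain background cannot be told apart. Whole worms were lysed, so fewer cells that express a gene and less RNA of it per cell cannot be told apart either.

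In the pathway, proteins that hold cells in an early larval program are removed in turn as small regulatory RNAs accumulate. The microRNA lin-4 acts on *lin-14* and *lin-28*, and let-7 and its relatives act on *hbl-1*, *lin-41* and *daf-12*, after which LIN-29 carries the skin through its switch to the adult state. The same genes are best known for the hypodermis and its seam cells, but some act elsewhere, and LIN-41 is also a regulator of growing oocytes.

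The libraries held 10152578 to 26211067 counts each, and levels are given as CPM, counts scaled to a common library size with TMM factors over the 15 libraries. The replicates of a strain lay apart from each other. Replicate 1 of *nrx-1* (ok1649), of *nlg-1* (ok259) and of *nlg-1* (tm474) carried 120210, 164270 and 147550 CPM on the 6 vitellogenin (yolk protein) genes, against 356 to 8268 CPM in the other 9 mutant libraries and 8836 to 19972 CPM in N2. Noncoding RNA genes took 2.99% to 30.3% of the counts in the mutant libraries and 4.03% to 5.497% in N2. Both targeted genes lay below N2 in every library of the strains that carry their alleles. So did 7.41% (ok1649), 21.1% (tm1961), 7.49% (ok259) and 6.85% (tm474) of all genes tested. The log2 fold changes were -0.53 (ok1649) and -0.90 (tm1961) for *nrx-1*, and -0.95 (ok259) and -2.18 (tm474) for *nlg-1*. The adjusted p by edgeR were 0.516, 0.130, 0.333 and 0.588 in the same order. *nrx-1* had 6.59 to 8.81 CPM in *nrx-1* (ok1649) and 4.02 to 7.90 CPM in *nrx-1* (tm1961), against 9.71 to 11.8 CPM in N2. *nlg-1* had 8.15 to 10.2 CPM in *nlg-1* (ok259) and 1.35 to 6.76 CPM in *nlg-1* (tm474), against 11.1 to 18.0 CPM in N2, so that *nlg-1* reads were counted in the strain described as a full knockout. Levels below N2 were not particular to these strains. *nlg-1* also had 2.79 to 12.03 CPM in *nrx-1* (ok1649) and 2.92 to 17.0 CPM in *nrx-1* (tm1961), and *nrx-1* had 7.55 to 10.3 CPM in *nlg-1* (ok259) and 6.08 to 11.6 CPM in *nlg-1* (tm474).

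**Figure D1:**
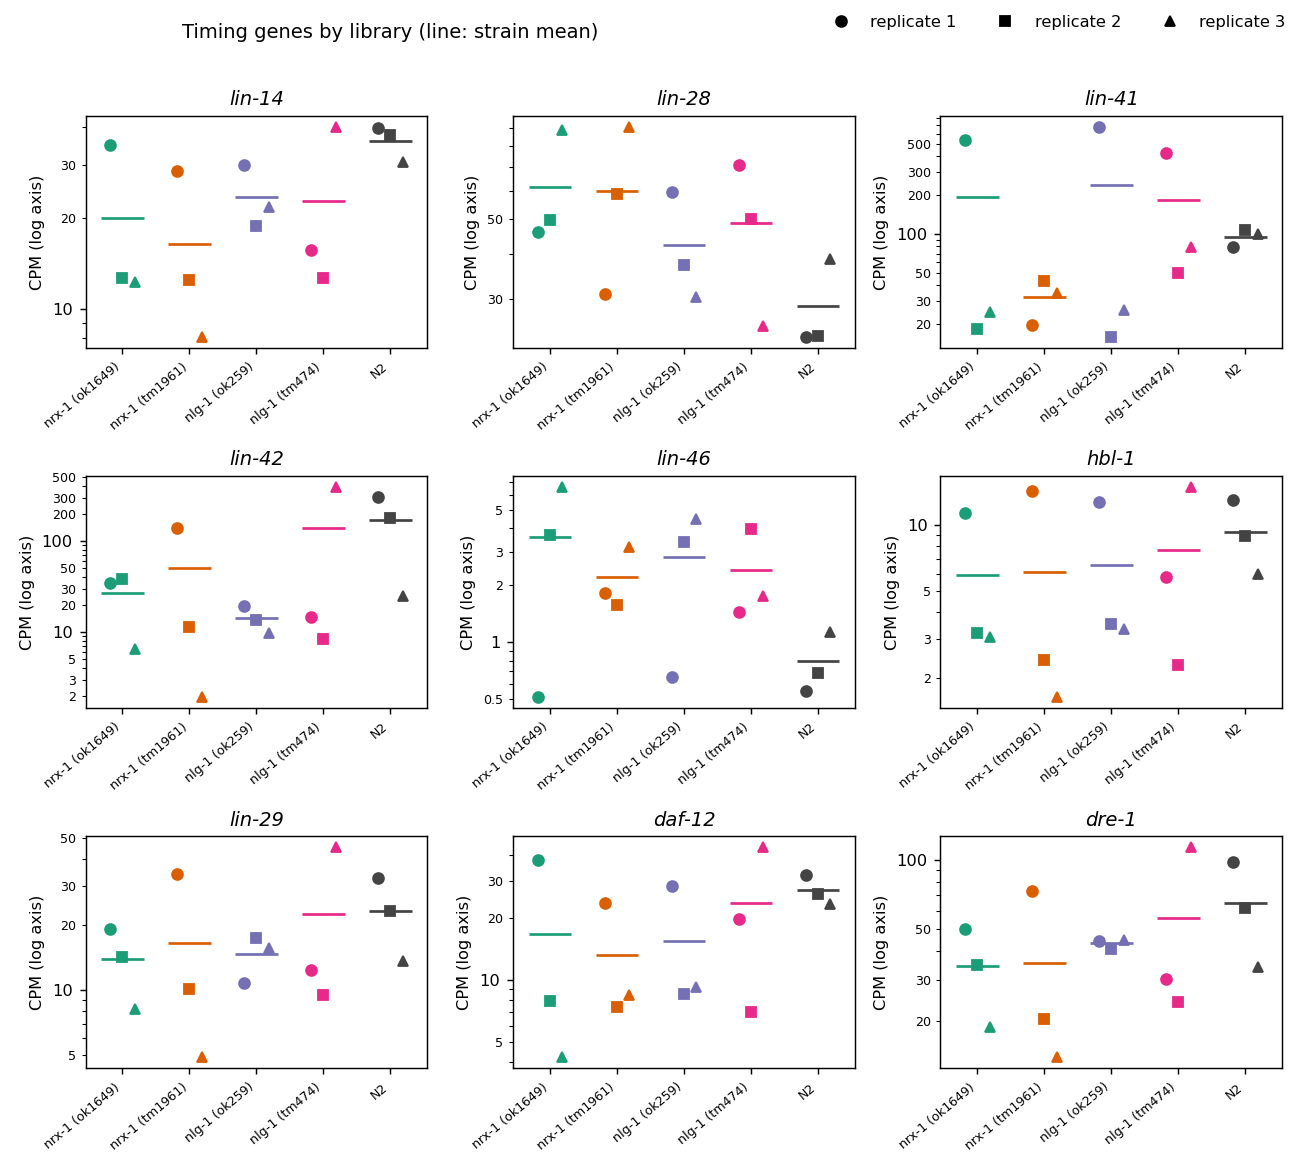
CPM of the 9 timing genes in each library on a log axis, by strain, with the mutants left of N2 and replicates 1, 2 and 3 as circles, squares and triangles; lines mark strain means. *lin-41* stands at 424 to 680.0 CPM in replicate 1 of 3 mutant strains and at 78.4 to 107.1 CPM in N2, while *lin-42* runs over a 205.6-fold range across the libraries.

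Per kilobase of exon, the scale on which genes can be compared with each other, the most abundant timing gene was not the same in every library. *lin-28* led in 8 of the 15 libraries. *lin-41* led in replicate 1 of *nrx-1* (ok1649), *nlg-1* (ok259) and *nlg-1* (tm474), at 110.7, 141.4 and 88.2 CPM per kilobase. *lin-42* led in replicate 1 of *nrx-1* (tm1961) (34.6 CPM per kilobase), replicate 3 of *nlg-1* (tm474) (98.2 CPM per kilobase) and replicates 1 and 2 of N2 (75.8 and 44.3 CPM per kilobase). The least abundant member was *lin-46* or *hbl-1* throughout. The spread over the 15 libraries was smallest for *lin-28*, whose highest CPM was 3.88 times its lowest, and *lin-14* (4.98 times), and largest for *lin-41* (43.3 times) and *lin-42* (205.6 times). When the strains were ordered by mean level for each gene, 33 of the 36 pairs of neighbours overlapped in their libraries. The same count over all genes was not made, so it does not set the timing genes apart from others. The exceptions were *lin-14*, where N2 lay above *nlg-1* (ok259), *lin-41*, where N2 lay above *nrx-1* (tm1961), and *lin-46*, where *nrx-1* (tm1961) lay above N2.

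*lin-14* (WBGene00003003, chromosome X, 11465560 to 11485871, plus strand, WBcel235) encodes a nuclear protein that specifies fates of the first larval stage. It had 34.8, 12.7 and 12.2 CPM in *nrx-1* (ok1649), against 39.6, 37.7 and 30.5 CPM in N2. It had 28.6, 12.4 and 8.04 CPM in *nrx-1* (tm1961), all below the lowest N2 library, as were the 29.9, 18.8 and 21.7 CPM of *nlg-1* (ok259). In *nlg-1* (tm474) it had 15.7, 12.6 and 40.1 CPM, the last above every N2 library. Its log2 fold changes were -0.90 (SE 0.56), -1.10 (SE 0.49), -0.88 (SE 0.35) and -0.72 (SE 0.51) in the same order of strains, and none passed the test (adjusted p by edgeR 0.428, 0.156, 0.338 and 0.734). Exons of *lin-14* overlap 2 small nucleolar RNA genes of the same strand (108 and 99 bases). These had 770 and 897 counts over all libraries, beside 7197 of *lin-14*. Other reads in the overlap may have been set aside by the counting.

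*lin-28* (WBGene00003014, chromosome I, 8407630 to 8410804, minus strand) encodes an RNA-binding protein that blocks the maturation of let-7. It was measured at 46.1, 49.8 and 88.8 CPM in *nrx-1* (ok1649), against 23.4, 23.6 and 38.7 CPM in N2, without overlap. It had 30.9, 58.8 and 90.8 CPM in *nrx-1* (tm1961). The *nlg-1* strains had 59.8, 37.2 and 30.4 CPM (ok259) and 70.8, 50.2 and 25.2 CPM (tm474). Of the 12 mutant libraries 8 lay above every N2 library and 0 below, a count that was not made over all genes. The log2 fold changes were 1.00 (SE 0.48), 1.12 (SE 0.45), 0.29 (SE 0.41) and 0.65 (SE 0.45), with adjusted p by edgeR of 0.310, 0.132, 0.777 and 0.722. The gene shares 16 exonic bases with F02E9.1 on the opposite strand.

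*lin-46* (WBGene00003031, chromosome V, 12968855 to 12970730, plus strand), a gephyrin-like scaffold gene that acts downstream of *lin-28*, was the member with the fewest reads. It had 0.510, 3.69 and 6.65 CPM in *nrx-1* (ok1649), 1.83, 1.57 and 3.21 CPM in *nrx-1* (tm1961), 0.653, 3.39 and 4.46 CPM in *nlg-1* (ok259) and 1.44, 3.99 and 1.76 CPM in *nlg-1* (tm474), against 0.549, 0.685 and 1.14 CPM in N2. Of the 12 mutant libraries 10 lay above all N2 libraries, a count that was not made over all genes. The exceptions were replicate 1 of the ok1649 and ok259 strains. In counts the mutant libraries ranged from 7 to 112 reads of the gene, which limits the precision of each level. The log2 fold changes were 2.05 (SE 0.80), 1.51 (SE 0.49), 1.63 (SE 0.77) and 1.60 (SE 0.69), and the adjusted p by edgeR were 0.242, 0.0897, 0.385 and 0.588.

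*hbl-1* (WBGene00001824, chromosome X, 5822142 to 5827755, plus strand) encodes a zinc-finger protein related to Hunchback that LIN-46 helps to keep out of the nucleus. It had 11.4, 3.22 and 3.09 CPM in *nrx-1* (ok1649), 14.3, 2.41 and 1.63 CPM in *nrx-1* (tm1961), 12.8, 3.52 and 3.36 CPM in *nlg-1* (ok259) and 5.76, 2.29 and 15.0 CPM in *nlg-1* (tm474), against 13.0, 8.94 and 5.98 CPM in N2. Each mutant strain thus held 1 library within or above the N2 range and 2 below it. The log2 fold changes ran from -0.81 to -0.36, with standard errors of 0.60 to 0.81.

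*lin-41* (WBGene00003026, chromosome I, 9334800 to 9342496, minus strand), which encodes a TRIM-NHL protein that binds RNA, differed widely between the replicates of 3 mutant strains. It had 532, 18.2 and 24.7 CPM in *nrx-1* (ok1649), 680.0, 15.7 and 25.4 CPM in *nlg-1* (ok259) and 424, 50.001 and 79.2 CPM in *nlg-1* (tm474), against 78.4, 107.1 and 99.7 CPM in N2. *nrx-1* (tm1961) had no such library, with 19.4, 42.6 and 34.6 CPM, all below N2. Its log2 fold change there was -1.52 (SE 0.36), the smallest adjusted p of any member by edgeR (0.0745). In the strains with a library of high *lin-41* the fold changes were 1.02 (ok1649), 0.96 (ok259) and 0.71 (tm474) on the log2 scale, with standard errors of 1.19, 1.24 and 0.66.

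The 3 libraries of high *lin-41* were those with the highest summed level of 8 oocyte and eggshell genes, among them *oma-1* and *puf-5*. These sums were 8544, 11277 and 9105 CPM in replicate 1 of *nrx-1* (ok1649), *nlg-1* (ok259) and *nlg-1* (tm474), against 94.3 to 1168 CPM in the other 9 mutant libraries and 1411 to 2373 CPM in N2. None of the 8 genes was at 0 in any library. The adult collagen gene *col-19*, a target of LIN-29 in the skin, was high in the same libraries, with 3163, 2891 and 4197 CPM, against 134 to 880 CPM in the other mutant libraries and 658 to 1692 CPM in N2. It was picked after its values were seen, and other collagen genes of the adult cuticle did not share this pattern. In the same libraries *bli-2* had 14.2, 4.86 and 6.72 CPM, against 19.1 to 286 CPM in N2, *bli-1* had 14.1, 7.55 and 6.88 CPM, against 7.86 to 218 CPM in N2, and *col-7* had 259, 66.1 and 82.4 CPM, against 182 to 386 CPM in N2. The part of oocyte content in the levels of *lin-41* was not tested.

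*lin-42* (WBGene00018572, chromosome II, 1233236 to 1252359, minus strand) encodes a relative of the clock protein Period, and its transcript cycles once with each molt. It had 34.9, 38.5 and 6.53 CPM in *nrx-1* (ok1649), 139, 11.4 and 1.92 CPM in *nrx-1* (tm1961), 19.4, 13.6 and 9.83 CPM in *nlg-1* (ok259) and 14.7, 8.43 and 394 CPM in *nlg-1* (tm474), against 304, 178 and 25.01 CPM in N2. The N2 libraries alone spread over an order of magnitude. The ok259 libraries were the only mutant group below all of N2, with a log2 fold change of -3.82 (SE 0.87, adjusted p = 0.206 by edgeR). The fold changes of the ok1649, tm1961 and tm474 strains were -2.73 (SE 0.99), -1.70 (SE 1.43) and -0.33 (SE 1.33) on the log2 scale.

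A summed level of 6 genes of the molt (*mlt-10*, *mlt-11*, *nas-37*, *noah-1*, *noah-2* and *fbn-1*) was read beside *lin-42*. Replicate 3 of *nlg-1* (tm474) and replicate 1 of *nrx-1* (tm1961) had sums of 3454 and 1044 CPM, against 1368 and 439 CPM in replicates 1 and 2 of N2. These were the libraries with *lin-42* above 100 CPM. Replicates 2 and 3 of *nlg-1* (ok259) and replicate 2 of *nrx-1* (ok1649) had molt sums of 513, 485 and 463 CPM, about as high as N2 replicate 2, with *lin-42* at 13.6, 9.83 and 38.5 CPM. None of the 6 genes was at 0 in any library. The part of molting stage in the levels of *lin-42* was not tested.

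**Figure D2:**
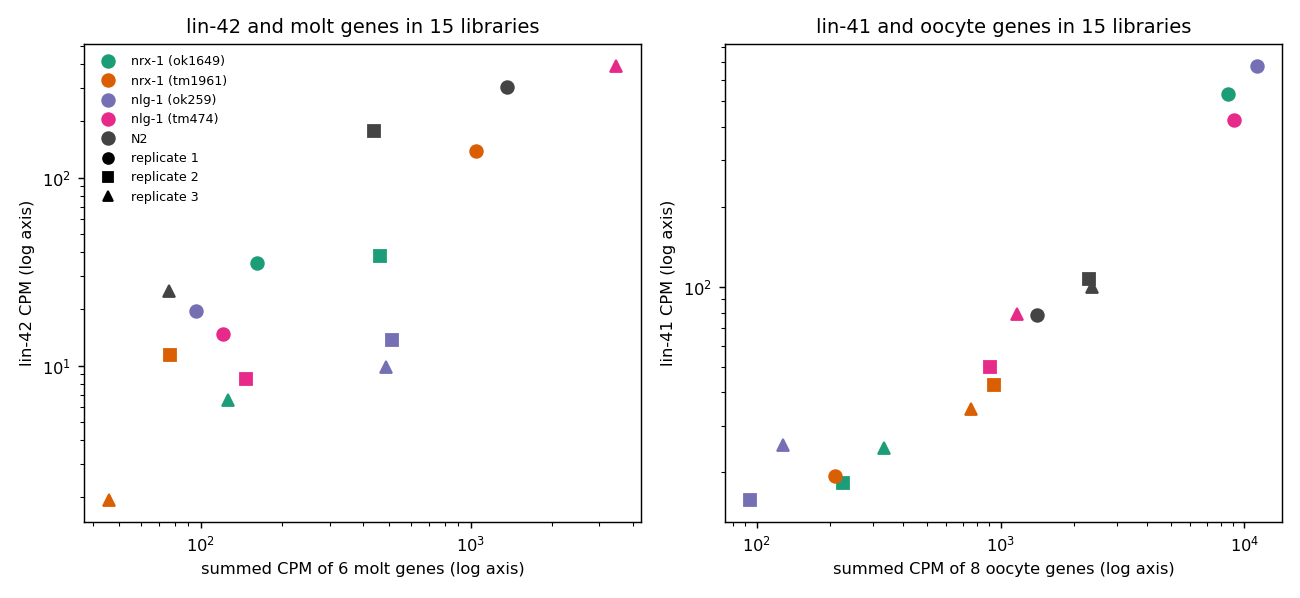
Levels in CPM on log axes of *lin-42* against the summed molt genes (left) and of *lin-41* against the summed oocyte genes (right), 1 point per library, colored by strain. The 3 libraries with oocyte sums of 8544 to 11277 CPM hold *lin-41* at 424 to 680.0 CPM, and the library with the molt sum of 3454 CPM holds *lin-42* at 394 CPM.

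*lin-29* (WBGene00003015, chromosome II, 11917642 to 11935343, minus strand) encodes the zinc-finger transcription factor of the switch from larva to adult. It averaged 13.8 ± 5.47 CPM in *nrx-1* (ok1649), 16.5 ± 15.7 CPM in *nrx-1* (tm1961), 14.6 ± 3.40 CPM in *nlg-1* (ok259) and 22.5 ± 20.1 CPM in *nlg-1* (tm474), against 23.2 ± 9.52 CPM in N2 (SD, n = 3 each). Every mutant strain overlapped N2, and the log2 fold changes lay between -0.89 and -0.11. The gene shares 2 exonic bases with *hmg-12* on the opposite strand.

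*daf-12* (WBGene00000908, chromosome X, 10635908 to 10666875, plus strand) encodes the nuclear receptor for dafachronic acids, the steroid hormones that let larvae go on to reproductive growth. It had 38.1, 7.86 and 4.21 CPM in *nrx-1* (ok1649), 23.6, 7.37 and 8.48 CPM in *nrx-1* (tm1961), 28.5, 8.56 and 9.28 CPM in *nlg-1* (ok259) and 19.7, 6.996 and 44.0 CPM in *nlg-1* (tm474), against 32.2, 26.1 and 23.3 CPM in N2. N2 was tight and 8 of the 12 mutant libraries lay below it, but every mutant strain overlapped N2. The same count over all genes was not made. The log2 fold changes were -0.72 (SE 0.79), -1.01 (SE 0.50), -1.12 (SE 0.51) and -0.30 (SE 0.61). The adjusted p by edgeR were 0.695, 0.188, 0.370 and 0.958.

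*dre-1* (WBGene00001089, chromosome V, 6533614 to 6546500, minus strand) encodes an F-box protein of a ubiquitin ligase that removes the transcription factor BLMP-1. It had 18.8 to 50.1 CPM in *nrx-1* (ok1649), 13.8 to 73.2 CPM in *nrx-1* (tm1961), 40.8 to 45.0 CPM in *nlg-1* (ok259) and 24.1 to 114 CPM in *nlg-1* (tm474), against 34.3 to 97.8 CPM in N2. Every mutant strain overlapped N2, and the log2 fold changes were -0.96, -0.82, -0.81 and -0.27.

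A gene was called differentially expressed in edgeR's quasi-likelihood test of 3 libraries against 3 if its p, adjusted over all genes tested by Benjamini-Hochberg, was below 0.05 and its log2 fold change passed 1 in either direction. In *nrx-1* (ok1649) 0 of the 9 timing genes were called, where 0.0251% of all 15957 genes tested were. At an unadjusted p below 0.05, 1 member was higher (*lin-46*) and 1 lower (*lin-42*), beside 13.0% and 5.11% of all genes. *lin-28* was the member whose libraries all lay above N2, a pattern of 15.9% of all genes, and 0 members lay below N2 in all libraries (7.41% of all genes). The median log2 fold change of the members was -0.72 and that of all genes 0.155. DESeq2 called 1 member, *lin-42* (log2 fold change -2.77, adjusted p = 0.0481), and 3.73% of the genes for which it gave an adjusted p. Without the filter on low counts edgeR called *lin-42* as well (-2.86, adjusted p = 0.0221), and 1.09% of all genes.

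In *nrx-1* (tm1961) 0 of 9 members were called and 0% of the 16268 genes tested. At an unadjusted p below 0.05, *lin-28* and *lin-46* were higher and *lin-41* was lower, beside 18.6% and 15.6% of all genes. *lin-46* lay above N2 in all libraries (18.0% of all genes) and *lin-14* and *lin-41* lay below (21.1% of all genes). The members' median was -0.82, against 0.113 over all genes. DESeq2 called *lin-41* (log2 fold change -1.56, adjusted p = 0.00658) and 19.8% of the genes it adjusted.

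In this strain replicates 1 and 3 deviated together with the same-numbered libraries of N2 (r = 0.673 and 0.633). Replicate 2 did so no more with replicate 2 of N2 (0.182) than with replicate 3 of N2 (0.19). The fit that blocked on the number called 7 of the 9 members. *lin-28* (1.02) and *lin-46* (1.51) rose in that fit, and *lin-14* (-1.29), *lin-41* (-1.58), *lin-42* (-2.91), *daf-12* (-1.20) and *dre-1* (-1.07) fell, with adjusted p by edgeR between 0.00977 and 0.0363. *lin-29* (-0.82, adjusted p = 0.104) and *hbl-1* (-1.15, adjusted p = 0.0691) did not pass. The same fit called 31.5% of all genes tested. The pairing was read from these same counts, by correlations between libraries, and not from a stated shared preparation.

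In *nlg-1* (ok259) 0 of 9 members were called and 0% of the 15905 genes tested. At an unadjusted p below 0.05, *lin-14* and *lin-42* were lower and 0 members were higher, beside 7.76% and 6.44% of all genes. These were also the members whose libraries all lay below N2, as did 7.49% of all genes, while 0 members lay above N2 in all libraries (15.8% of all genes). The members' median was -0.81, against 0.0322 over all genes. DESeq2 called *lin-42* (log2 fold change -3.74, adjusted p = 0.000839) and 4.01% of the genes it adjusted.

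In *nlg-1* (tm474) 0 of 9 members were called and 0% of the 15947 genes tested. At an unadjusted p below 0.05, *lin-46* was higher and 0 members were lower, beside 5.20% and 3.21% of all genes, and its libraries all lay above N2, as did 8.20% of all genes, while 0 members lay below N2 in all libraries (6.85% of all genes). The members' median was -0.27, against 0.0757 over all genes. DESeq2 called 0 members and 0.287% of the genes it adjusted. The 4 comparisons share their N2 libraries, so that a high or low N2 level of a gene enters all of them.

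**Figure D3:**
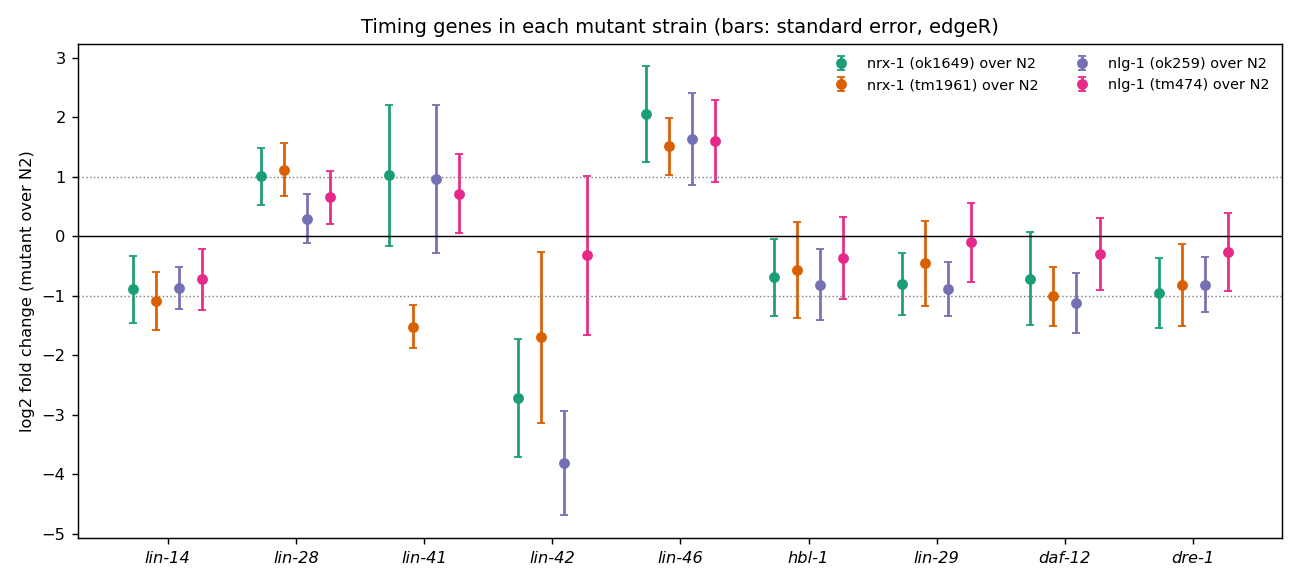
Log2 fold change of each timing gene over N2 in the 4 mutant strains, with bars of 1 SE from edgeR (3 libraries against 3). *lin-46* stands at 1.51 to 2.05 and *lin-42* at -3.82 to -0.33, and the widest bars, of 1.43 and 1.33, are those of *lin-42* in the tm1961 and tm474 strains.

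The fold changes, and in some strains the calls, differed when single libraries were left out. Without replicate 1 of *nrx-1* (ok1649), 6 members were called by edgeR among 45.8% of all genes. *lin-28* (1.07) and *lin-46* (2.48) rose, and *lin-14* (-1.73), *lin-41* (-2.35), *hbl-1* (-1.75) and *daf-12* (-2.37) fell, with adjusted p of 0.00431 to 0.0458. Without replicate 1 of *nrx-1* (tm1961), all 9 members were called among 36.5% of all genes, *lin-28* and *lin-46* up and the other 7 down, the lowest being *lin-42* at -4.64. Without replicate 1 of *nlg-1* (ok259), 5 members were called among 42.3% of all genes. *lin-46* (2.16) rose, and *lin-41* (-2.35), *lin-42* (-3.99), *hbl-1* (-1.57) and *daf-12* (-1.75) fell. In *nlg-1* (tm474) replicate 3 was the highest of the strain for *lin-14*, *hbl-1*, *lin-29*, *lin-42*, *daf-12* and *dre-1*. Without it *lin-42* had a log2 fold change of -4.05, 2 members were higher and 6 lower at an unadjusted p below 0.05 (12% and 9.52% of all genes), and 0 were called by edgeR, as were 0% of all genes. Each of these fits rests on 2 mutant and 3 N2 libraries. The libraries left out were the yolk-rich ones of the ok1649 and ok259 strains and, in tm1961 and tm474, the ones with the highest molt sum of their strain (1044 CPM, against 77.1 and 45.8 CPM in the other tm1961 libraries, and 3454 CPM, against 120 and 147 CPM in the other tm474 libraries). The part of these differences in the calls was not tested.

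**Figure D4:**
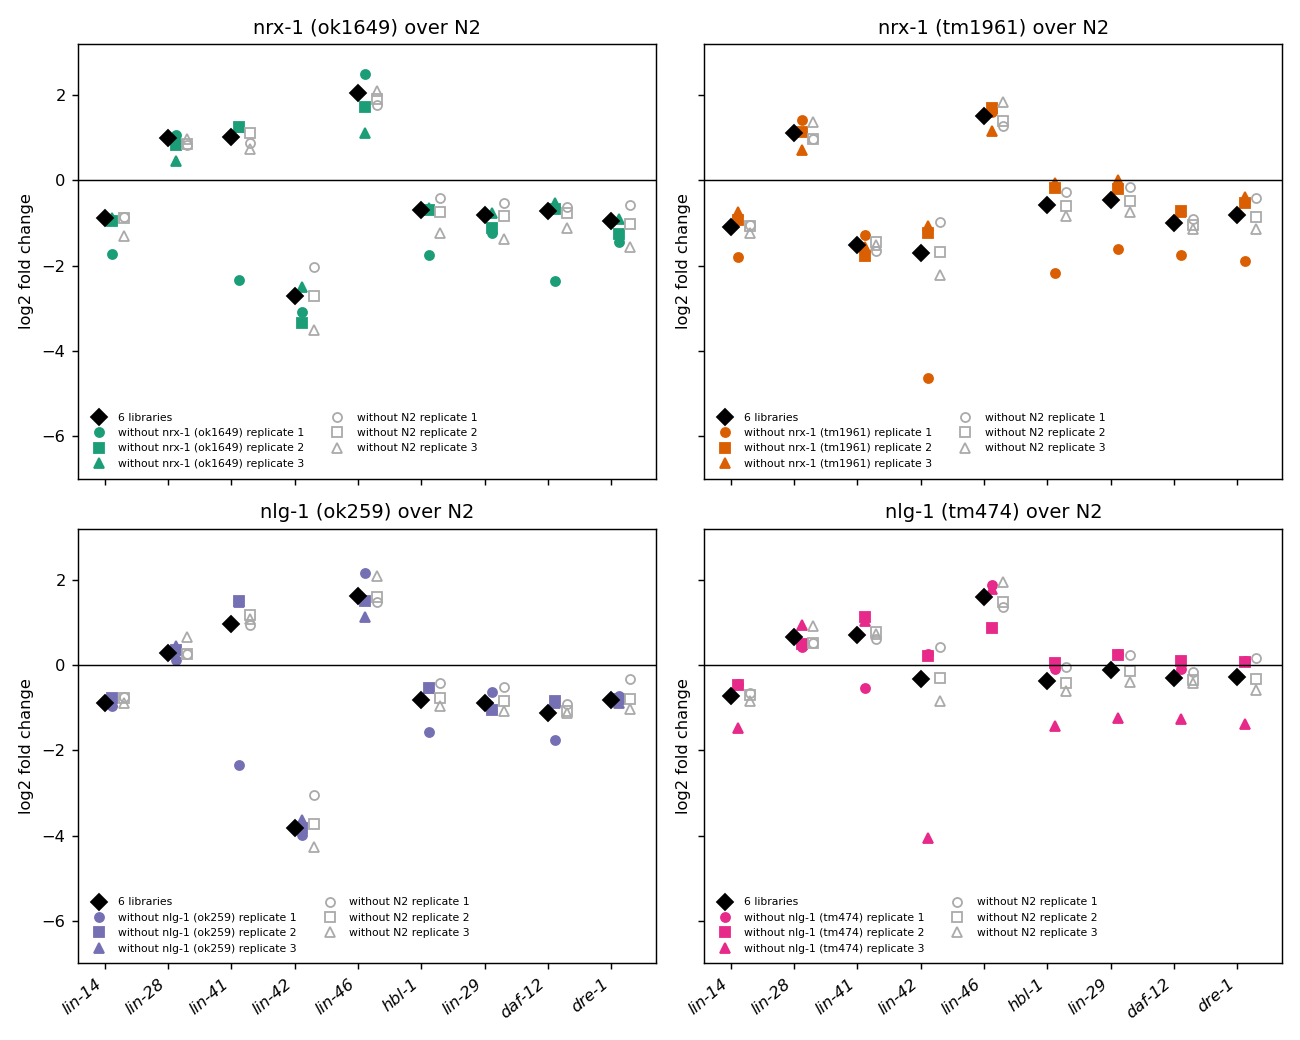
Log2 fold change over N2 of each timing gene with 6 libraries (diamonds) and with each library left out, colored for the mutant and open for N2, 1 panel per strain. *lin-41* turns to -2.35 without replicate 1 of *nrx-1* (ok1649) or of *nlg-1* (ok259), and *lin-42* to -4.05 without replicate 3 of *nlg-1* (tm474).

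The 2 alleles of each gene were set against each other in a fit over all 15 libraries. Between *nrx-1* (tm1961) and *nrx-1* (ok1649), 0 members were called by edgeR, beside 0.0345% of the 17395 genes tested, and 0 members had an unadjusted p below 0.05 (1.14% of all genes). The largest difference was that of *lin-41*, -2.57 on the log2 scale (SE 1.42), and the other members differed by -0.72 to 0.93. Without replicate 1 of *nrx-1* (ok1649) the difference of *lin-41* was 0.59. Between *nlg-1* (tm474) and *nlg-1* (ok259), 0 members were called, beside 0.0345% of all genes, and 0 had an unadjusted p below 0.05 (1.66% of all genes). The largest difference was that of *lin-42*, 3.28 on the log2 scale (SE 1.54), and the other members differed by -0.38 to 0.62. Without replicate 3 of *nlg-1* (tm474) the difference of *lin-42* was -0.31. The standard errors of these differences ran from 0.52 to 1.54, so that only large differences between alleles were detectable. DESeq2 on the 15 libraries called 0 members between the alleles of either gene.

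Other genes of the pathway were read from lists drawn up by their roles. No gene of any list was called against N2 by edgeR with the 6 libraries of a comparison. Among 13 other timing regulators tested, 13 had log2 fold changes below 0 in both *nrx-1* strains and in *nlg-1* (ok259), with medians of -0.77 (ok1649), -1.10 (tm1961) and -0.95 (ok259), and 8 were below 0 in *nlg-1* (tm474), with a median of -0.18. Not every library lay low. The summed level of this list (14 genes in the table) was 915 and 943 CPM in replicate 1 of *nrx-1* (ok1649) and of *nlg-1* (ok259). It was 636 to 889 CPM in N2 and 270 to 344 CPM in the other replicates of these strains. Of all genes tested, 43.0% (ok1649), 46.5% (tm1961), 48.6% (ok259) and 45.2% (tm474) were below 0, and the medians of all genes, given above, were slightly over 0. At an unadjusted p below 0.05, 1 (ok1649), 6 (tm1961), 3 (ok259) and 0 (tm474) of them were lower, beside 5.11%, 15.6%, 7.76% and 3.21% of all genes, and 0 were higher in any strain. The lowest were *nhr-85* (-1.545), a nuclear receptor gene, in *nrx-1* (ok1649) and *sea-2* (-1.98) in *nrx-1* (tm1961). In the *nlg-1* strains they were *mab-10* (-2.06), which encodes the NAB cofactor of LIN-29, in ok259 and *puf-9* (-0.57), a gene of a Pumilio-type RNA-binding protein, in tm474. The highest were ubiquitin ligase subunit genes, *cul-1* in ok1649 (-0.11) and ok259 (-0.12) and *skr-1* in tm1961 (-0.12), and the nuclear receptor gene *nhr-25* (0.86) in *nlg-1* (tm474).

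Of 10 genes that process microRNAs or carry out their effect, at an unadjusted p below 0.05 4 were lower in *nrx-1* (tm1961), where 15.6% of all genes were, and 0 in the other strains, where 3.21% to 7.76% of all genes were. The list's median was -0.19 for ok1649, -1.20 for tm1961, -0.26 for ok259 and -0.03 for tm474. Low levels were not particular to tm1961. The summed level of the 10 genes was 347 to 523 CPM in tm1961, against 805 to 891 CPM in N2. It was 288 to 368 CPM in replicates 2 and 3 of ok1649 and ok259, and 429 and 944 CPM in those of tm474. Replicate 1 of ok1649, ok259 and tm474 had 1518, 1814 and 1373 CPM. *ain-1*, a GW182-type partner of Argonaute, was lowest in *nrx-1* (ok1649) (-1.04) and in both *nlg-1* strains (-1.33 in ok259 and -0.39 in tm474), and the exonuclease gene *xrn-2* was lowest in *nrx-1* (tm1961) (-1.97). *drsh-1*, the nuclear microRNA processing enzyme, was highest in both *nrx-1* strains (0.40 in ok1649 and 0.053 in tm1961). Its partner gene *pash-1* was highest in *nlg-1* (ok259) (0.44), and the Argonaute gene *alg-2* in *nlg-1* (tm474) (0.47). The microRNA genes themselves were barely counted. *lin-4* and *let-7* had 0 counts in all 15 libraries, which allows up to 0.101 to 0.480 CPM per library (3 counts, counting error only), and these libraries do not measure mature microRNAs. Of the 6 microRNA genes listed, *mir-241* was tested in *nrx-1* (ok1649) (1.30), and *mir-241* and *mir-48* in *nlg-1* (ok259) (1.11 and 1.03) and *nlg-1* (tm474) (1.055 and 0.46).

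Among 7 tested genes of dafachronic acid synthesis and of partners of DAF-12, the oxygenase gene *daf-36*, which starts the conversion of cholesterol to the hormone, had the highest log2 fold change in every mutant strain. It had 20.3, 33.2 and 37.6 CPM in *nrx-1* (ok1649), 5.63, 26.3 and 33.1 CPM in *nrx-1* (tm1961), 10.02, 21.3 and 21.7 CPM in *nlg-1* (ok259) and 22.5, 31.7 and 13.0 CPM in *nlg-1* (tm474), against 7.46, 9.67 and 5.73 CPM in N2. All mutant libraries but replicate 1 of *nrx-1* (tm1961) lay above N2. Of all genes, 15.9% (ok1649), 15.8% (ok259) and 8.20% (tm474) had every library of the strain above N2. The log2 fold changes were 1.89, 1.55, 0.996 and 1.502, with adjusted p by edgeR of 0.212, 0.132, 0.395 and 0.588. The lowest of the list were the sterol transport gene *ncr-2* in *nrx-1* (ok1649) (-1.08) and *nlg-1* (tm474) (-0.68), and *din-1*, the gene of a corepressor of DAF-12, in the tm1961 (-1.33) and ok259 (-1.25) strains. The medians of this list were -0.74, 0.39, -0.26 and 0.33 in the order ok1649, tm1961, ok259 and tm474.

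Of 5 collagen genes that change with the switch from larva to adult, 0 had an unadjusted p below 0.05 in any strain, and the medians were -0.0062, -0.80, -0.58 and 0.36 in the same order. *col-17*, a larval collagen gene, was lowest in both *nrx-1* strains (-2.499 in ok1649 and -1.30 in tm1961) and in *nlg-1* (ok259) (-2.0). It had 682 CPM in replicate 3 of *nlg-1* (tm474) and 2.87 to 278 CPM in the other mutant libraries, against 476, 252 and 18.0 CPM in N2. *bli-2*, a collagen gene of the adult cuticle, was highest in the same strains, at 0.39 (ok1649), 0.32 (tm1961) and 0.17 (ok259), and in *nlg-1* (tm474) *bli-1* was highest (1.18) and *col-7* lowest (-0.37).

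**Figure D5:**
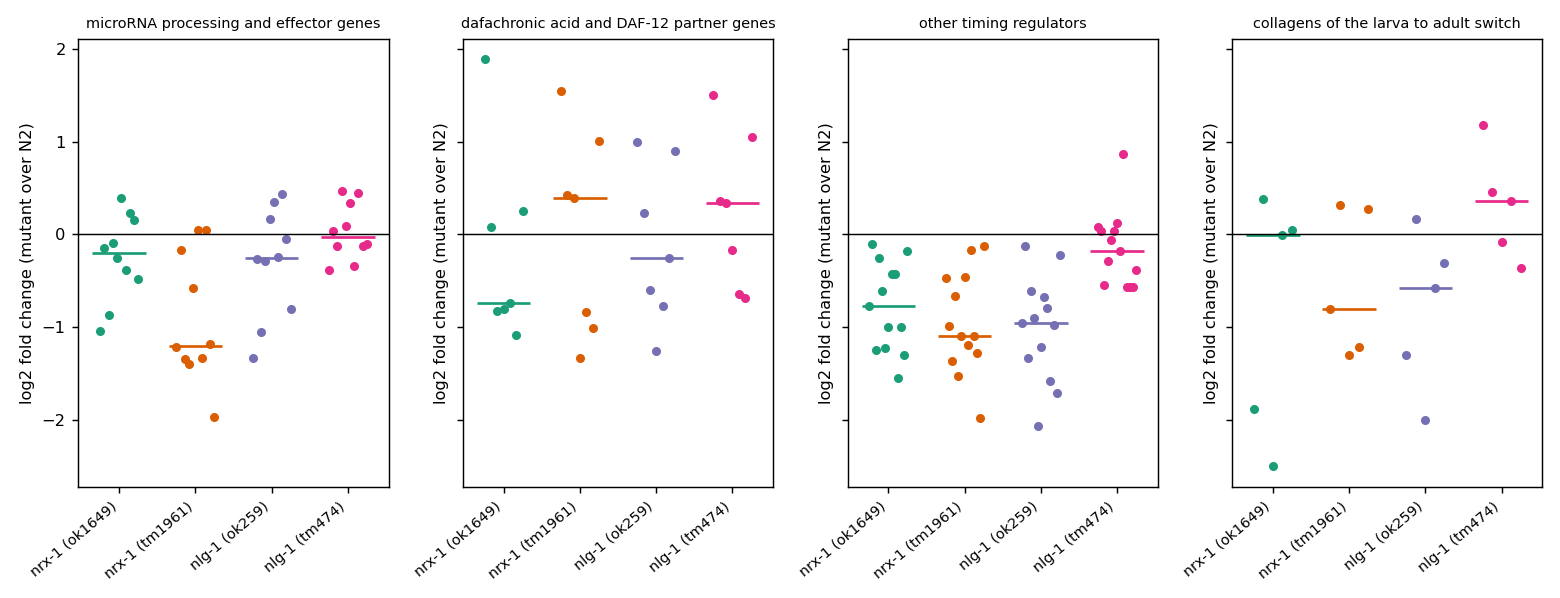
Log2 fold change over N2 of the tested genes of each pathway list in the 4 mutant strains, 1 point per gene, with the list median as a bar. All 13 other timing regulators lie below 0 in both *nrx-1* strains and in *nlg-1* (ok259), and 8 do in *nlg-1* (tm474). Their summed level in replicate 1 of *nrx-1* (ok1649) and of *nlg-1* (ok259) was above N2.

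The genes whose levels followed each member most closely were taken by Pearson's r of log2 CPM over the 15 libraries, among 17394 genes. They were *pqn-44* (0.980) and *ncr-1* (0.977) for *lin-14*, *cpf-1* (0.975) and *lid-1* (0.971) for *lin-28*, C34F6.11 (0.966) and K02E11.3 (0.957) for *lin-46*, and *tlp-1* (0.963) and *atgp-1* (0.960) for *hbl-1*. For *lin-41* they were *hcp-1* (0.994), a gene of a centromere protein, and F52D2.12 (0.992), and for *lin-42* the collagen gene *col-10* (0.978) and *dnj-24* (0.976). For *lin-29* they were F43D9.1 (0.974) and *nab-1* (0.968), for *daf-12* *toca-1* (0.982) and *dsh-1* (0.978), and for *dre-1* *dur-1* (0.983) and *asd-2* (0.978). The libraries of a strain share their origin, and depth, yolk and molt sums differ between libraries as given above, so these values describe likeness across this set.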

How the data were processed

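The authors sequenced total RNA, depleted of rRNA, from 3 samples of each of 5 strains. Reads were trimmed (Trimmomatic), aligned to the worm genome (STAR) and counted by exon where uniquely mapped (featureCounts). The submitters' processing notes name bcl2fastq 2.20 and WBcel235. The deposited values are raw counts per gene, without normalization. The strand setting of the counting is not given in the sources used here, so reads of genes that overlap on opposite strands may be mixed. Positions and exon lengths came from Ensembl 115 (WBcel235), where 46581 of the identifiers were found and 175 were not.

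Strains came from the sample labels. The study calls the 3 samples of a strain independent worm preparations. In all 15 pairs of replicates the counts differed by more than sampling noise (chi-square per degree of freedom at least 28.25). Mutants were tested against N2 with edgeR 4.0.16 (R 4.3.3) by quasi-likelihood, using TMM factors and filterByExpr, 3 libraries against 3, with no block. Alleles were compared in a fit of all 15 libraries. The log2 CPM behind likeness used a prior count of 2. The scripts were tested on simulated counts. Alternatives were DESeq2 1.42.0, other scalings, no filter, a fit on 15 libraries, dropping genes that took over 5% of a library, the adjusted p alone, the replicate number as a block, and each replicate left out.

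Replicate numbers in the labels are the same across strains. Correlations of deviations from group means between same-numbered libraries of *nrx-1* (tm1961) and N2 were 0.673, 0.182 and 0.633. Between the *nlg-1* alleles they were 0.777, 0.577 and 0.287. Each was over 0.1, and these comparisons are called paired here on that cut alone. In the other comparisons at least 1 was not over 0.1. With the same N2 libraries, same-numbered libraries gave -0.18, 0.183 and 0.225 (ok1649), -0.331, 0.049 and -0.406 (ok259) and -0.393, -0.141 and -0.672 (tm474). Whether the numbers mark a shared preparation was not tested. Some differently numbered pairs were also over 0.1, among them replicate 1 of *nrx-1* (tm1961) with replicate 2 of N2 (0.125). Another was replicate 2 of *nlg-1* (tm474) with replicate 3 of *nlg-1* (ok259) (0.469).

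Named were all 9 members, *nrx-1* and *nlg-1*, the highest and lowest gene of each pathway list and any that passed both criteria, and the 2 genes most like each member. *col-19* was chosen after its values were seen. The members and lists were chosen with earlier results of these data known.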

Additional observations from a re-analysis of the deposited data

How the results depend on the processing

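With each replicate left out in turn, the number of timing genes called by edgeR ranged between 0 and 6 for *nrx-1* (ok1649), 0 and 9 for *nrx-1* (tm1961), and 0 and 5 for *nlg-1* (ok259), and stayed at 0 for *nlg-1* (tm474). The calls came without replicate 1 of each of the first 3 strains, and leaving out any other library gave 0. DESeq2 called 1 timing gene in each of the same 3 strains, and edgeR with no filter called 1 in *nrx-1* (ok1649). The cause was not tested. Over all genes, DESeq2 called 602 (ok1649), 3158 (tm1961), 634 (ok259) and 52 (tm474), against 4, 0, 0 and 0 by edgeR, and edgeR with no filter called 307, 8, 9 and 182. With the replicate number as a block, 7 timing genes were called in *nrx-1* (tm1961) (5127 of all genes) and 0 in the other strains and between alleles, where it changed no call. In *nrx-1* (ok1649) and *nlg-1* (ok259), whose numbers do not pair with those of N2, the block turned *lin-41* to -1.07 and -1.18 on the log2 scale. Of 36 fold changes of timing genes over N2, 27 kept their sign under every alternative. With replicates left out, *lin-41* ranged between -2.35 and 1.25 (ok1649), -2.35 and 1.51 (ok259) and -0.54 and 1.12 (tm474), and *lin-29* between -1.60 and 0.018 (tm1961). In *nlg-1* (tm474), *lin-29* ranged from -1.235 to 0.26, *lin-42* from -4.05 to 0.43, *dre-1* from -1.39 to 0.17, *hbl-1* from -1.44 to 0.050 and *daf-12* from -1.26 to 0.11. Between alleles, *lin-41* ranged from -3.115 to 0.59 (*nrx-1*) and *lin-42* from -0.31 to 3.84 (*nlg-1*). The median fold change over all genes moved by 0.13 (tm1961), 0.14 (ok259) and -0.14 (tm474) when scaled to library totals and by 0.12 (ok259) with RLE size factors, and no timing gene changed sign with scaling. DESeq2 gave no adjusted p for *lin-41* in *nrx-1* (ok1649) and *nlg-1* (ok259). Depth limits *lin-46* most, with as few as 7 reads in a library.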

Other observations

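Sperm and seam cell genes were read in the same libraries as further marks of stage. The summed level of 6 sperm genes was 73.9 to 148 CPM in the 12 mutant libraries, against 156 to 227 CPM in N2. In N2 most of this sum came from the sperm phosphatase genes *gsp-3* and *gsp-4*, whose log2 fold changes ran from -2.02 to -1.34 and from -2.28 to -1.29 over the 4 strains. The medians over the 6 genes were -0.15 (ok1649), -0.020 (tm1961), -0.14 (ok259) and -0.51 (tm474), with 3, 3, 2 and 3 genes above 0, among them *spe-38* (0.84, 0.42, 1.06 and 0.11) and *spe-42* (0.67, 0.46, 0.86 and 0.23). No gene of the list was called by edgeR, and *spe-42* was at 0 in at least 1 library. The 4 seam cell genes summed to 9.28 to 43.7 CPM in the mutant libraries and 12.3 to 16.9 CPM in N2. *grd-10*, a gene of a hedgehog-related protein, had log2 fold changes of 1.39 (ok1649), 1.55 (tm1961), -0.057 (ok259) and 0.94 (tm474). Those of *egl-18* were 0.58, -0.58, 0.41 and 0.68 in the same order. It had 19.3, 24.9 and 21.1 CPM in replicate 1 of ok1649, ok259 and tm474. Other mutant libraries had 1.55 to 7.24 CPM of it and N2 4.34 to 7.01 CPM. *elt-6*, a GATA factor gene, was lowest of the seam cell genes tested in all 4 strains, from -1.25 to -0.45. *nhr-73* was tested in ok1649 alone (0.078) and was at 0 in at least 1 library.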
